A study of Mus musculus with 8 samples.

Results

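The p53 pathway in the postnatal day 1 (P1) mouse cortex was followed through 10 genes picked by name: *Trp53*, which encodes p53, and *Cdkn1a*, *Mdm2*, *Bax*, *Bbc3*, *Pmaip1*, *Ccng1*, *Trp53inp1*, *Sesn2* and *Eda2r*, which are p53 targets, several of them pro-apoptotic. All 10 were among the 48709 genes listed in the count files, and all 10 were among the 16287 genes with enough counts to be tested. RNA from whole cortical tissue was sequenced in 4 control and 4 mutant (dcKO_Nex-Cre) libraries. The dcKO_Nex-Cre mice carried floxed BAF155 (*Smarcc1*) and BAF170 (*Smarcc2*), the core scaffold subunits of the chromatin remodeling BAF complex, together with Nex-Cre, which is active in postmitotic projection neurons. Controls were heterozygous for both floxed alleles (BAF155fl/+, BAF170fl/+) and had no Cre, and all mice were on a C57BL6/J background. The comparison asks whether a cortex whose neurons lose BAF shows a p53 or cell death response. The Cre allele was present only in the mutants, so its presence and the deletion cannot be told apart. The tissue also holds cells other than projection neurons, and the study proposes that leftover BAF subunits likely come from glia or interneurons. Which cells kept both genes was not tested here. The genotypes and the Cre line come from the study's methods, since the labels give only control or mutant and the age. Nothing in the sources used here says that the libraries came from separate animals, so the p-values measure the spread between these samples, which may be technical.

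p53 is a transcription factor that is made continuously and kept low by MDM2, a ubiquitin ligase that is itself a p53 target. DNA damage and other stresses stabilize the protein, largely without more *Trp53* mRNA, and p53 then induces genes that arrest the cell cycle, repair damage, restrain growth or start mitochondrial apoptosis. In the last of these, BH3-only proteins such as NOXA (*Pmaip1*), PUMA (*Bbc3*) and BIM (*Bcl2l11*) neutralize BCL-2 and its relatives, BAX and BAK open the mitochondrial outer membrane, and cytochrome c assembles APAF1 and caspase-9, which starts the caspase cascade. Neurons around birth are sensitive to this route, which removes surplus cells during normal cortical development.

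p53 binds DNA as a tetramer, on pairs of the p53 half-site, a motif of 10 bases. Promoter windows from RefSeq (GRCm38.p6, 250 bases before to 50 after a start) were searched for 8 of the 10 genes, in 11 windows and on both strands. No window of *Pmaip1* or *Trp53inp1* was used, so the counts below say nothing of these genes, and whether their promoters hold a half-site is left open. A perfect half-site was found for 5 genes, and a pair of half-sites, with at most 1 mismatch in each and a spacer of at most 13 bases, for *Cdkn1a* and *Ccng1*. Each of these genes had its matches in a single window, out of the 11 searched. Counted by window and not by gene, 8.36% of all 32851 windows held a half-site and 2.71% a pair. The stretches around the half-sites are printed because they hold the letters that p53 is known to bind, 5′ to 3′ on the strand of the gene, with perfect half-sites in capitals.
Trp53, chr11:69580259-69580318, plus strand: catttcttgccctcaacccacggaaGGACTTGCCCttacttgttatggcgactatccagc
Cdkn1a, chr17:29090881-29090972, plus strand: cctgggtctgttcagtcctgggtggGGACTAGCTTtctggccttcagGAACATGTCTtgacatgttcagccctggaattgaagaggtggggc
Mdm2, chr10:117710910-117710969, minus strand: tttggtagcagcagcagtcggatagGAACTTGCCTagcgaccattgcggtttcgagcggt
Bax, chr7:45467065-45467124, minus strand: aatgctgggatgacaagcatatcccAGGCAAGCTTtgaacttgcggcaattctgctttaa
Ccng1, chr11:40755437-40755506, minus strand: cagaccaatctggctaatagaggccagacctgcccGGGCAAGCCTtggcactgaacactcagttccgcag
The *Cdkn1a* stretch lies before the more distal of the gene's 2 starts, which are 2790 bases apart, and it holds both of the gene's perfect half-sites, 73 and 51 bases before that start. The half-site of *Trp53* itself lay 75 bases before its start, that of *Mdm2* 186, that of *Ccng1* 185 and that of *Bax* 201. No perfect half-site was in the windows of *Bbc3*, *Sesn2* and *Eda2r*. For *Bbc3*, the bases compared after each of its 3 starts were in no annotated transcript of the gene, so its windows are less certain. A match describes the letters only and says nothing of binding in these cells.

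The libraries held 17958641 to 35191912 counts. *Smarcc2* fell to 56.9% of its control level (log2 fold change -0.81, SE 0.089, adjusted p = 0.00267) and *Smarcc1* to 69.2% (log2 fold change -0.53, SE 0.099, adjusted p = 0.0348) in whole tissue. *Smarcc1* shares 123 exon bases with the antisense gene *Dhx30*, so part of its count is uncertain, and it passed in 7 of 16 alternative fits, where *Smarcc2* passed in all 16. Mitochondrial transcripts took 2.33% to 4.24% of counts in 6 libraries, but 6.87% in control replicate 2 and 6.15% in dcKO_Nex-Cre replicate 4. Lane tag 2 marked every control and the first 2 mutant replicates, while lane tag 8 marked only mutant replicates 3 and 4 and so gives no comparison of its own. Values below are CPM (counts scaled to a common library total, after TMM normalization), with mean ± SD over 4 libraries per group, and log2 fold changes are dcKO_Nex-Cre minus control.

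None of the 10 genes passed edgeR's quasi-likelihood test at an adjusted p under 0.05, where 0.884% of all tested genes (144, of which 61 were upregulated and 83 downregulated) did. The nearest was *Pmaip1*, at 233% of its control level and an adjusted p that just missed (0.0504). Before adjustment, 2 of the 10, *Pmaip1* and *Trp53*, were higher in dcKO_Nex-Cre with p under 0.05 (background 6.59% of tested genes) and 0 were lower (background 7.05%). The same 2 genes were the ones whose groups did not overlap, both higher, against 3.99% of tested genes, and 0 of the 10 lay wholly lower, against 4.01%. DESeq2's Wald test called 1 of the 10, *Pmaip1*, with a background of 3.16%. Across the 10 genes 7 log2 fold changes were above 0 and 3 below, with a median of 0.090. Over all tested genes the median was 0.0043 and 50.9% were above 0.

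**Figure D1:**
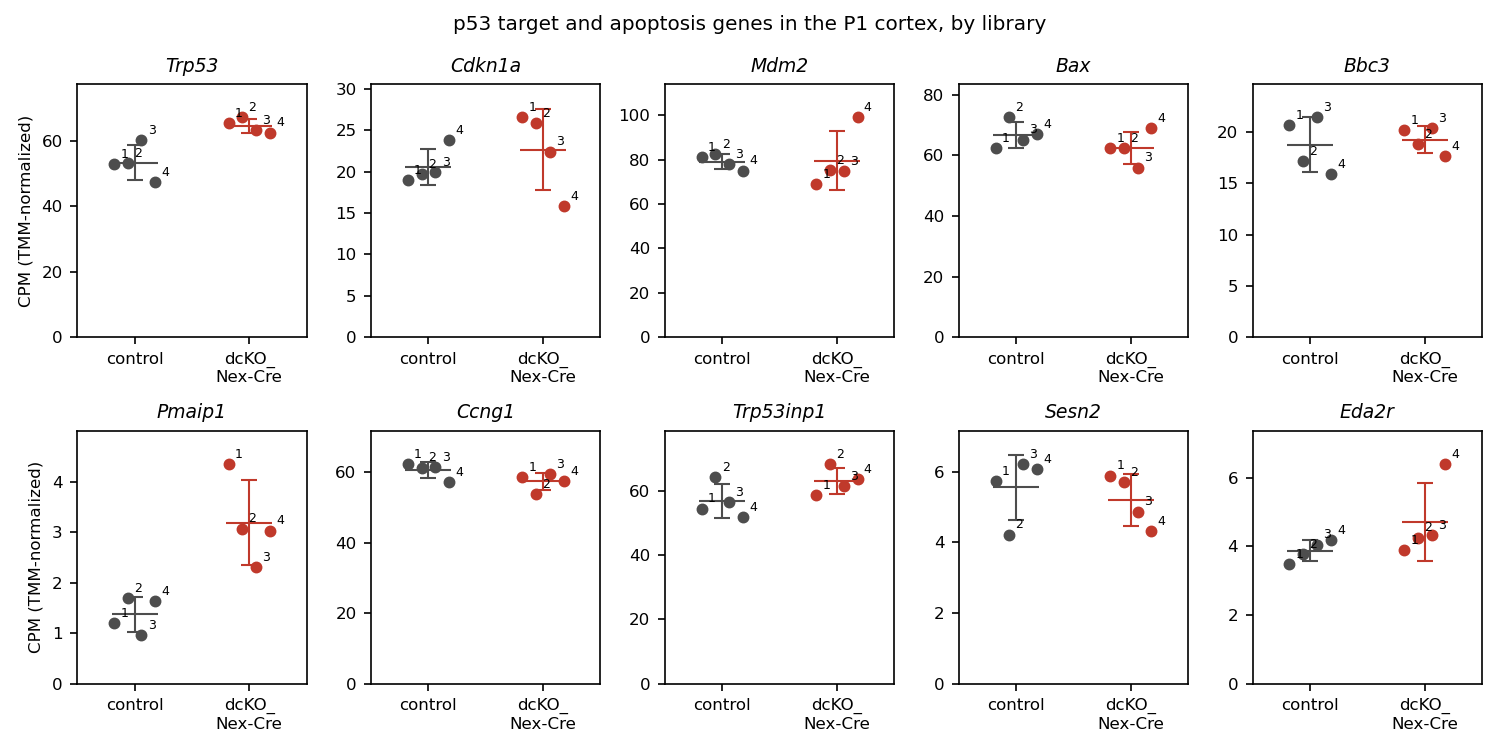
CPM of each of the 10 genes in each library (points numbered by replicate, bars at the mean ± SD, n = 4 per group, linear axes from 0). The groups are apart for *Trp53* and *Pmaip1*, and overlap for the other 8; dcKO_Nex-Cre replicate 4 is the highest mutant library for *Mdm2* and *Eda2r* and the lowest for *Cdkn1a*.

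*Trp53* (chr11:69580359-69591873 on GRCm38, as for the loci that follow) was measured at 52.8, 53.2, 60.2 and 47.4 CPM in control replicates 1 to 4. The dcKO_Nex-Cre libraries stood at 65.4, 67.2, 63.3 and 62.6 CPM, so that the lowest mutant library was above the highest control. The means were 53.4 ± 5.23 and 64.6 ± 2.11 CPM, a level of 121% of control (log2 fold change 0.27, SE 0.082, 95% interval 0.095 to 0.46). The exact two-sided permutation p was 0.0286, the smallest that 70 regroupings can give, and edgeR's p was 0.00635, which became 0.176 once adjusted over all tested genes. The log2 fold change lay between 0.22 and 0.34 in every one of 16 alternative fits, while the adjusted p ran from 0.0445 to 0.42 and passed in 1 of them. The annotated pseudogene *Trp53-ps* had 0 counts in every library. *Trp53* mRNA is not a measure of p53 protein, which was not analysed here.

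*Mdm2* (chr10:117688875-117710758), the ligase that degrades p53 and a sensitive p53 target, was at 81.1, 82.4, 77.9 and 75.1 CPM in the controls. In dcKO_Nex-Cre it was at 69.0, 75.3, 75.0 and 99.1 CPM. Replicate 4 was the highest of all 8 libraries, and the other 3 mutant libraries lay near or below the lowest control. The means were nearly equal, 79.1 ± 3.27 and 79.6 ± 13.3 CPM (log2 fold change 0.0068, 95% interval -0.23 to 0.24, edgeR adjusted p = 0.983). Without dcKO_Nex-Cre replicate 4 the log2 fold change was -0.11, and within lane tag 2 it was -0.13. The related inhibitor *Mdm4*, which binds p53 without degrading it, had means of 121.5 ± 16.5 and 123 ± 11.4 CPM (log2 fold change 0.02, adjusted p = 0.944).

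*Cdkn1a* (chr17:29090976-29100727) encodes p21, the cyclin-dependent kinase inhibitor through which p53 stops the cell cycle. Its controls were at 19.0, 19.7, 19.9 and 23.8 CPM. Its dcKO_Nex-Cre libraries were at 26.6, 25.9, 22.4 and 15.8 CPM. Replicates 1 and 2 were above every control and replicate 4 was below every control, so the mutant spread was over the whole control range. The means were 20.6 ± 2.17 and 22.7 ± 4.91 CPM (log2 fold change 0.14, 95% interval -0.19 to 0.48, edgeR adjusted p = 0.693). The value rested on which libraries were used: without dcKO_Nex-Cre replicate 4 it was 0.28 (unadjusted p = 0.0157, adjusted p = 0.098, edgeR), and within lane tag 2 alone it was 0.35 (unadjusted p = 0.00958, adjusted p = 0.110, edgeR). Without dcKO_Nex-Cre replicate 1 it was 0.059. *Cdkn1a* shares 273 exon bases with an annotated gene on the opposite strand, which was not among the listed genes and so has no counts here.

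*Ccng1* (chr11:40748552-40755311), cyclin G1, a p53 target that feeds back on MDM2, had the smallest standard error of the 10, 0.069 on the log2 scale. The controls were at 62.4, 61.3, 61.5 and 57.2 CPM, and the mutants at 58.7, 53.8, 59.5 and 57.6 CPM. The ranges overlapped, with means of 60.6 ± 2.32 and 57.4 ± 2.49 CPM (log2 fold change -0.078, 95% interval -0.23 to 0.073, edgeR adjusted p = 0.630).

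*Pmaip1* (chr18:66458533-66465565), encoding the BH3-only protein NOXA, gave the largest difference of the 10. It was measured at 1.19, 1.70, 0.96 and 1.63 CPM in controls, against mutant values of 4.35, 3.07, 2.31 and 3.03 CPM. Every mutant library was above every control, and replicate 1 was the highest. The means were 1.37 ± 0.354 and 3.19 ± 0.847 CPM (log2 fold change 1.23, SE 0.25, 95% interval 0.68 to 1.79), and the exact two-sided permutation p was 0.0286. These levels are low, resting on 23 to 150 counts per library. edgeR's unadjusted p of 0.000455 ranked 147 among all tested genes, just outside the 144 that passed. The log2 fold change stayed between 1.04 and 1.45 in all 16 alternatives, and its adjusted p passed 0.05 in 7 of them, from 0.0013 with DESeq2 to 0.179 without control replicate 1. Within lane tag 2 alone the log2 fold change was 1.45 (edgeR adjusted p = 0.0362), and without control replicate 2 and dcKO_Nex-Cre replicate 4 it was 1.38 (edgeR adjusted p = 0.0113).

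*Bbc3* (chr7:16308393-16318205), encoding the BH3-only protein PUMA, which in many neurons is the main link from p53 to death, stood at 20.7, 17.1, 21.4 and 15.9 CPM in controls. The dcKO_Nex-Cre libraries, at 20.1, 18.8, 20.4 and 17.6 CPM, all lay inside the control range. The log2 fold change was 0.037 (95% interval -0.21 to 0.28, edgeR adjusted p = 0.908). *Bax* (chr7:45461697-45466898), the pore-forming effector, was at 62.4, 72.5, 65.2 and 67.0 CPM in controls and 62.3, 62.4, 56.0 and 69.0 CPM in mutants. These overlapped too, with a log2 fold change of -0.098 (95% interval -0.28 to 0.084, edgeR adjusted p = 0.614). *Bax* shares 192 exon bases with *Gm45808* on its strand, a gene with 0 counts.

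*Trp53inp1* (chr4:11156431-11174379), a p53 target that promotes p53 phosphorylation and autophagy, was at 54.5, 64.3, 56.4 and 51.9 CPM in controls and 58.7, 68.4, 61.6 and 63.8 CPM in dcKO_Nex-Cre. Control replicate 2 was above mutant replicates 1, 3 and 4, so the groups overlapped (log2 fold change 0.15, 95% interval -0.035 to 0.34, edgeR adjusted p = 0.450). *Sesn2* (chr4:132492032-132510501), sestrin 2, which restrains mTORC1 under stress, was at 5.72, 4.21, 6.22 and 6.08 CPM in controls and 5.88, 5.71, 4.87 and 4.32 CPM in mutants. Its groups covered nearly the same range (log2 fold change -0.094, 95% interval -0.45 to 0.27, edgeR adjusted p = 0.826). *Eda2r* (chrX:97333840-97377216), the ectodysplasin A2 receptor of the TNF receptor superfamily, was at 3.48, 3.78, 4.05 and 4.18 CPM in controls and 3.88, 4.25, 4.33 and 6.40 CPM in mutants. Mutant replicate 4 was far above the other 7 libraries, and the log2 fold change was 0.27 with it (95% interval -0.12 to 0.66, edgeR adjusted p = 0.519) and 0.071 within lane tag 2. An interval that spans 0 does not show that a gene is unaltered: for *Eda2r* it reaches a 1.59-fold higher level, and for *Bax* and *Ccng1* it runs from 0.823 to 1.06 and from 0.853 to 1.05 of the control level.

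**Figure D2:**
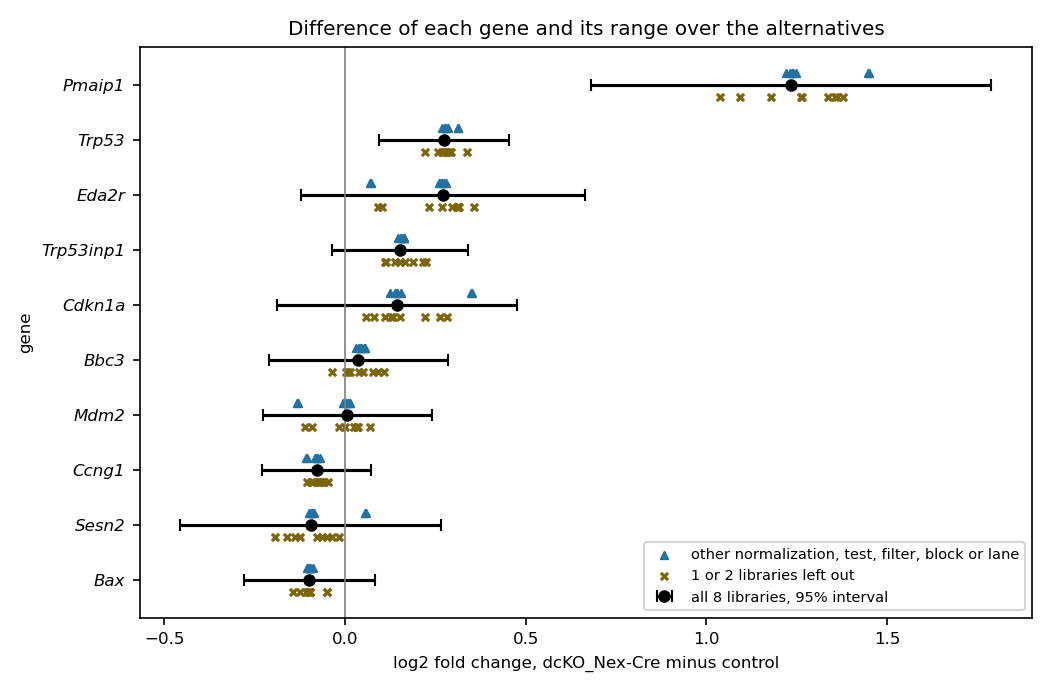
log2 fold change (dcKO_Nex-Cre minus control) of each gene, with black points and bars for all 8 libraries and the 95% interval, triangles for other normalization, test, filter, block or lane fits, and crosses for fits without 1 or 2 libraries. Only the bars of *Pmaip1* (0.68 to 1.79) and *Trp53* (0.095 to 0.46) lie off 0, and the alternatives of *Mdm2*, *Bbc3* and *Sesn2* fall on both sides of it.

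dcKO_Nex-Cre replicate 4 was the highest mutant library for 3 of the 10 genes (*Mdm2*, *Bax* and *Eda2r*) and the lowest for 4 (*Trp53*, *Cdkn1a*, *Bbc3* and *Sesn2*). Leaving it out raised the calls across all tested genes from 144 to 1278, a background of 7.73%, and 1 of the 10, *Pmaip1*, was then called by edgeR (adjusted p = 0.0218). *Trp53* came to an adjusted p of 0.0553 in that fit. The part of the mitochondrial share in these differences was not tested.

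Per kilobase of exon, which allows levels of different genes to be set side by side, *Bax* was the most abundant of the 10 in the controls, at 42.4 ± 2.72 CPM per kb. *Ccng1* (17.3), *Mdm2* (15.6), *Trp53* (13.2), *Bbc3* (8.83), *Trp53inp1* (8.77), *Cdkn1a* (5.80), *Sesn2* (1.60), *Eda2r* (0.657) and *Pmaip1* (0.501 CPM per kb) followed. The control ranges of *Mdm2* and *Trp53*, of *Bbc3* and *Trp53inp1*, and of *Eda2r* and *Pmaip1* overlapped, so their order is not settled by these libraries. In dcKO_Nex-Cre *Pmaip1* stood at 1.17 ± 0.310 and *Eda2r* at 0.801 ± 0.193 CPM per kb, again with overlapping ranges, so that *Eda2r* and not *Pmaip1* had the lowest mean there.

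The wider pathway was followed through 5 lists with 104 genes, of which 99 were tested. By edgeR's test 2 of the 99, *Bcl2l11* and *Ddit4*, passed, both upregulated, where 0.884% of all tested genes passed. *Bcl2l11*, encoding the BH3-only protein BIM, was at 15.3, 18.3, 17.2 and 14.4 CPM in controls and 24.3, 25.9, 23.4 and 24.1 CPM in dcKO_Nex-Cre. Every mutant library was above every control, and the mean rose from 16.3 ± 1.75 to 24.5 ± 1.06 CPM (log2 fold change 0.59, SE 0.096, edgeR adjusted p = 0.0208). BIM is known in neurons as a target of FOXO and JNK signaling. *Ddit4* encodes REDD1, an mTORC1 inhibitor induced by p53 but also by hypoxia and glucocorticoids, and was at 79.7, 63.9, 82.0 and 74.4 CPM in controls and 99.4, 104.8, 107.9 and 112 CPM in mutants. Its mean rose from 75.0 ± 8.05 to 106 ± 5.41 CPM (log2 fold change 0.50, SE 0.087, edgeR adjusted p = 0.0278). *Bcl2l11* passed in 9 and *Ddit4* in 8 of the 16 alternatives. Leaving out control replicate 1, 3 or 4 or dcKO_Nex-Cre replicate 2 or 3 lost both calls, with adjusted p up to 0.114 for *Bcl2l11* and 0.110 for *Ddit4*, and over all 16 alternatives their log2 fold changes were at least 0.53 and 0.41.

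**Figure D3:**
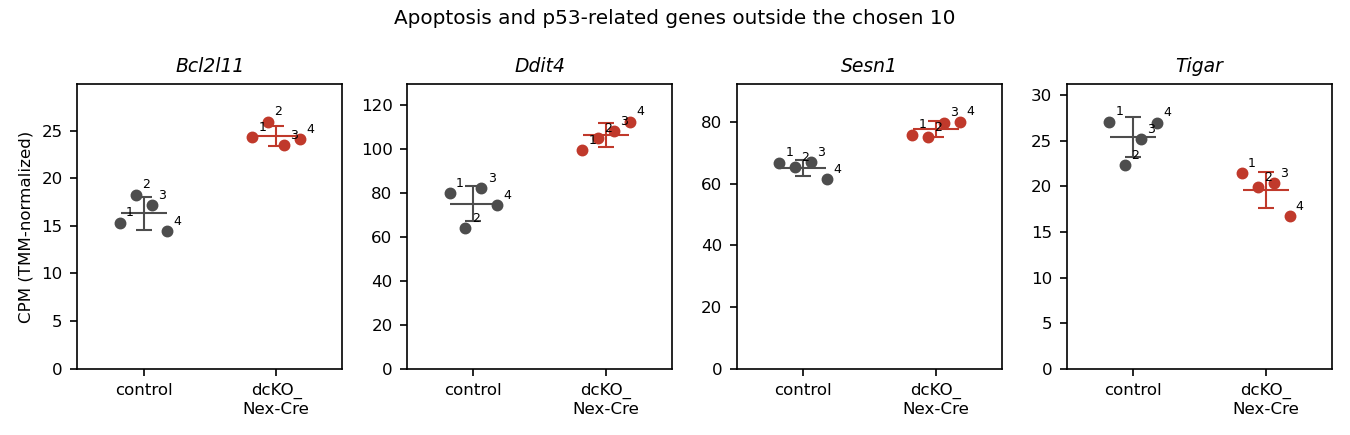
CPM by library (points numbered by replicate, bars at the mean ± SD, n = 4 per group, linear axes from 0) of *Bcl2l11*, *Ddit4*, *Sesn1* and *Tigar*. In each panel the groups do not overlap, with the mutants above the controls in the first 3 and below them for *Tigar*; only *Bcl2l11* and *Ddit4* passed the test.

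Among the p53 family and its regulators, 16 of 17 genes were tested (*Cdkn2a* was too low). By edgeR 0 passed (background 0.884% of tested genes) and by DESeq2 0 (background 3.16%). An unadjusted edgeR p under 0.05 was reached by 0 (background 6.59% of tested genes higher and 7.05% lower). Of these, 11 log2 fold changes were above 0 and 5 below, with a median of 0.037. *Trp53bp2*, encoding the p53-binding protein ASPP2, was nearest, at 50.4 ± 4.06 and 59.7 ± 9.44 CPM (log2 fold change 0.25, adjusted p = 0.373). The next were *Ppp1r13l*, which encodes the p53 inhibitor iASPP (0.24, adjusted p = 0.564), and *Rchy1*, which encodes the p53 ubiquitin ligase PIRH2 (0.098, adjusted p = 0.564).

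Of 30 other p53 targets, 29 were tested (*Gdf15* was too low), 17 log2 fold changes were above 0 and 12 below, and the median was 0.080. *Ddit4* passed, and at an unadjusted p under 0.05 there were 3 higher and 3 lower genes (background 6.59% and 7.05% of tested genes). The groups did not overlap for 3 higher and 2 lower genes (background 3.99% and 4.01%). *Sesn1*, sestrin 1, had means of 65.1 ± 2.54 and 77.7 ± 2.59 CPM with no overlap (log2 fold change 0.25, edgeR adjusted p = 0.123). *Tigar*, a p53-inducible fructose bisphosphatase that slows glycolysis, lay the other way, with means of 25.4 ± 2.23 and 19.6 ± 2.02 CPM and no overlap (-0.37, edgeR adjusted p = 0.140). DESeq2 called *Sesn1*, *Tigar* and *Ddit4* of this list (background 3.16% of genes in either direction). The damage-inducible *Gadd45a* had a log2 fold change of 0.20 (adjusted p = 0.678), and *Zmat3*, an RNA-binding p53 target, 0.088 (adjusted p = 0.631). Within lane tag 2 the value of *Gadd45a* was -0.039.

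In the Bcl-2 family 13 of 14 genes were tested (*Bik* was too low), 8 log2 fold changes were above 0 and 5 below, and the median was 0.067. The anti-apoptotic *Bcl2* (0.067), *Bcl2l1* (0.15) and *Mcl1* (0.021) and the effector *Bak1* (0.14) had edgeR adjusted p of 0.853, 0.468, 0.912 and 0.532. *Bnip3*, a hypoxia-linked mitophagy receptor, had means of 10.8 ± 1.56 and 8.31 ± 1.40 CPM (-0.38, edgeR adjusted p = 0.307).

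All 23 genes of the caspases, apoptosome and inhibitors list were tested. By edgeR 0 passed (background 0.884% of tested genes) and by DESeq2 0 (background 3.16%), so few calls would be looked for in a list this short. At an unadjusted edgeR p under 0.05, 1 was higher and 1 lower (background 6.59% and 7.05% of tested genes). There were 12 log2 fold changes above 0 and 11 below (median 0.036). *Apaf1* (0.13) and *Casp9* (0.085), the scaffold and the initiator caspase of the apoptosome, had adjusted p of 0.600 and 0.754. *Casp2*, an initiator caspase, was at 118% of control (0.24, edgeR adjusted p = 0.222) and *Birc6*, a large inhibitor of apoptosis, at 110% (0.14, adjusted p = 0.484). *Cycs*, cytochrome c, was at 71.1% of control (-0.49, edgeR adjusted p = 0.197), but it rests on 82 to 146 counts per library and has many processed copies in the mouse genome that can share its reads. Caspase activation is a cleavage step that mRNA levels do not report.

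Of 20 genes of the integrated, unfolded-protein and oxidative stress list, 18 were tested (*Trib3* and *Hspa1a* were too low). By edgeR 0 passed (background 0.884% of tested genes) and by DESeq2 0 (background 3.16%). At an unadjusted edgeR p under 0.05 there were 2 higher and 2 lower (background 6.59% and 7.05% of tested genes). The log2 fold changes were split 9 above and 9 below 0 (median 0.0081). The transcription factors of the integrated stress response, *Atf4* (-0.089) and *Ddit3* (-0.096), had edgeR adjusted p of 0.676 and 0.681. The endoplasmic reticulum chaperone *Hspa5* (-0.23) and *Xbp1*, a regulator of the unfolded protein response (-0.21), had adjusted p of 0.338 and 0.333. The heat shock gene *Hspa1b* was at 239% of control (log2 fold change 1.23, edgeR adjusted p = 0.138), but at 3 to 23 counts per library, and its reads cannot be separated from those of the near-identical *Hspa1a*.

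**Figure D4:**
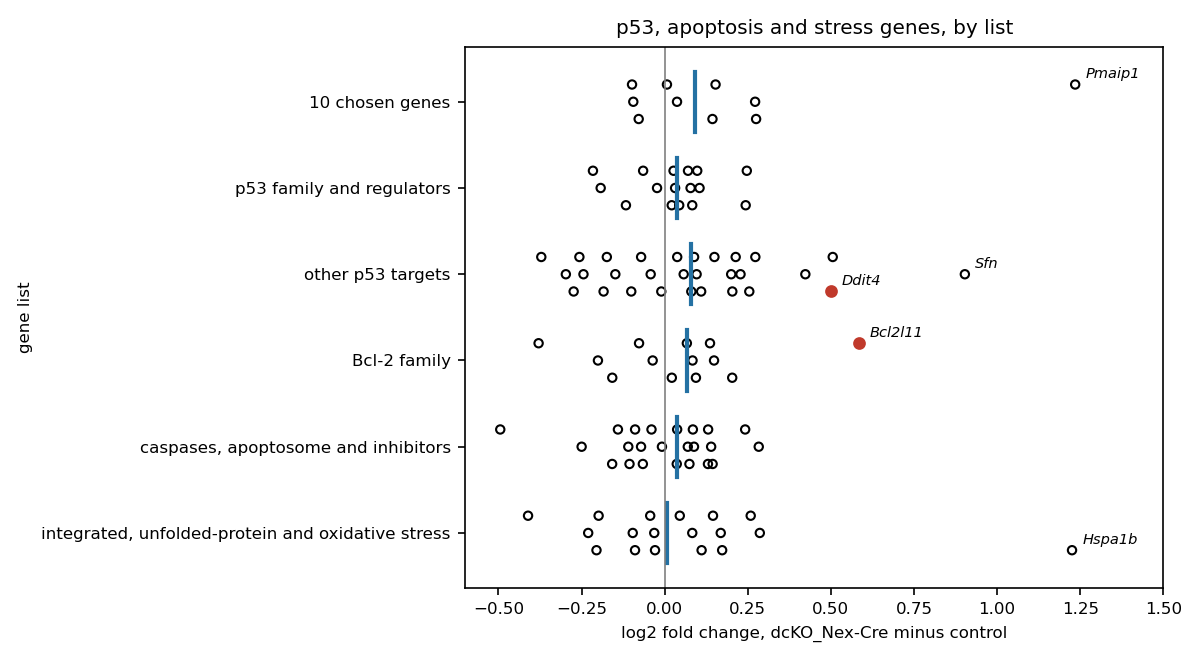
log2 fold change (dcKO_Nex-Cre minus control) of each tested gene by list, with red points for genes past the adjusted p of 0.05 and blue bars at the medians (0.090, 0.037, 0.080, 0.067, 0.036 and 0.0081 from top to bottom). Names mark called genes and those beyond 0.8, and all the medians lie close to 0; *Sfn*, named for its size alone, had an adjusted p of 0.431.

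In whole tissue, fewer cells of a type and less RNA per cell cannot be told apart, and markers of other cell types were read beside these genes. All 8 projection neuron markers were detected, with a summed level of 1096 to 1176 CPM in controls and 985 to 1242 CPM in dcKO_Nex-Cre. The sum hides differences between them, as 3 log2 fold changes were above 0 and 5 below. *Fezf2* was lower without overlap of the groups (-0.55, edgeR adjusted p = 0.149), and *Slc17a7* was lower with overlap (-0.54, edgeR adjusted p = 0.280). *Cux1* was higher without overlap (0.16, edgeR adjusted p = 0.377). All 5 oligodendrocyte precursor markers had log2 fold changes above 0 and *Cspg4* passed, with a summed level of 173 to 252.05 CPM in controls and 252.13 to 308 CPM in mutants. Microglial markers were split, with 5 of 9 log2 fold changes above 0 and 4 below and sums of 110 to 128 and 114 to 153 CPM. *C1qb* passed by edgeR (higher), *P2ry12* lay the other way with groups that did not overlap (log2 fold change -0.57, edgeR adjusted p = 0.0596), and DESeq2 called *C1qb* and *C1qc* higher and *P2ry12* lower. Among striatal markers 1 of 5, *Ppp1r1b*, passed, with sums of 73.6 to 104 and 87.1 to 198 CPM. *Cspg4*, *C1qb* and *Ppp1r1b* were the only edgeR calls in the 12 marker lists, where 0.884% of all tested genes passed. The other 9 lists were projection neuron, endothelium, radial glia and astrocyte, interneuron, dividing cell, Cajal-Retzius cell, erythroid cell, meninges and pericyte, and choroid plexus. They were grouped for having no edgeR call, so that absence is not a result about their 52 tested markers. At an unadjusted p under 0.05 by edgeR, 2 of the 52 were higher and 5 lower (background 6.59% and 7.05% of tested genes). DESeq2 called 4 lower, *Fezf2*, *Fabp7*, *Sst* and *Rgs5* (background 3.16% in either direction). One-sided directions were not limited to the oligodendrocyte precursor list. All 6 endothelial and all 5 tested erythroid markers had log2 fold changes above 0, and dividing cell markers were 5 above and 1 below. All 4 Cajal-Retzius and all 3 tested choroid plexus markers were below 0, and the remaining lists were mixed. The choroid plexus sum ran from 15.98 to 1331 CPM within the controls alone. No marker was at 0 in every library, and the part of these cell types in the levels of *Bcl2l11*, *Ddit4*, *Pmaip1* and *Trp53* was not tested.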

How the data were processed

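RNA from P1 whole cortex was extracted with TRIZOL, made into libraries with the TruSeq v2 kit and sequenced from 4 control and 4 dcKO_Nex-Cre samples. The files deposited by the authors hold raw, unnormalized counts of reads by Ensembl gene, 1 table for each library, on mm10 per the labels. The aligner, the counting program, the annotation and the strand setting are not given in the sources used here, so reads of a gene and an antisense partner cannot be told apart. Symbols and exon lengths came from GENCODE M21 (GRCm38), which covered 48349 of the 48709 listed genes. The lane tag of a library is part of its table's name.

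The deposited counts were tested with edgeR 4.0.16 (R 4.3.3): TMM normalization, filterByExpr, robust quasi-likelihood fit, control and dcKO_Nex-Cre only, no covariate, and Benjamini-Hochberg adjustment over 16287 genes at 0.05. Single genes were also given a two-sided exact permutation test over 70 regroupings. The code of the fit was run on simulated counts with large fold changes, a single spread for all genes and no lane effect. That run does not measure the power for differences as small as most seen here. Totals of 17958641 to 35191912 counts per library set the precision, which is lowest for *Pmaip1*, *Eda2r* and *Sesn2*. No 2 libraries of a group agreed within sampling noise (chi-square per degree of freedom of 3.77 or more).

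The replicate numbers did not pair the samples. Alternatives were DESeq2 1.42.0 and its size factors, other filters, a replicate block, lane tag 2 alone, lane tag as a covariate, and leaving out each library; leaving out both libraries rich in mitochondrial counts was chosen after seeing the data. The 10 genes, the 5 pathway lists and the 12 marker lists were chosen with earlier results of these data known. Beyond the 10, the text names *Smarcc1* and *Smarcc2*, 11 fixed genes (1 more is not reported here), and from each pathway list the 3 tested genes with the smallest unadjusted p and any past the threshold; markers were named after their values were seen, as was *Sfn*. Promoter windows were from RefSeq; none was used for *Pmaip1* and *Trp53inp1*.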

Additional observations from a re-analysis of the deposited data

Results flagged for a closer look

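Dixon's test at the 95% level was applied to 70 groups of 4 libraries and marked 3, where chance marks about 1 in 20, or 3.5. Control replicate 2 was marked for *Mdm4*, with 146.2 CPM beside 111.7 to 115.3 CPM, and for *Bcl2l1*, with 111.8 CPM beside 123.4 to 124.8 CPM in the 3 remaining controls. Control replicate 3 was marked for *Mcl1*, with 186.8 CPM beside 177.5 to 178.6 CPM. None of the 10 genes was marked.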

How the results depend on the processing

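Of the 10 genes, 1 (*Pmaip1*) was called by edgeR with DESeq2 size factors, by DESeq2, with no filter, with at least 10 counts in every library and within lane tag 2. Without control replicate 2 and dcKO_Nex-Cre replicate 4, 2 (*Pmaip1* and *Trp53*) were called, in a fit that called 1794 of all 16330 genes tested. Leaving out 1 library gave 0 to 1 of the 10, 0 to 6 pathway genes and 18 to 1278 of all genes, the highest each time without dcKO_Nex-Cre replicate 4 and the lowest for all genes without control replicate 1. Calls over all genes were 145 of 16287 tested with DESeq2 size factors, 494 of 15648 by DESeq2, 259 of 30127 with no filter and 146 of 15009 with at least 10 counts in every library. They were 248 of 16792 within lane tag 2, 52 of 16287 with lane tag as a covariate and 54 of 16287 with the replicate block. Without the pair of libraries they were 1794 of 16330. Within lane tag 2, 56.45% of calls were higher in dcKO_Nex-Cre, against 42.36%. Pathway calls, to be read beside these totals, were 4 by DESeq2, 1 within lane tag 2, 0 with lane tag as a covariate, 0 with the replicate block and 13 without the pair. The causes were not tested, beyond fewer libraries in some fits.

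Reversed log2 fold changes within lane tag 2 were -0.13 for *Mdm2*, 0.059 for *Sesn2*, -0.060 for *Mdm4*, -0.039 for *Gadd45a* and -0.023 for *Mcl1*. With lane tag as a covariate they were -0.13, 0.057, -0.062, -0.042 and -0.025 in the same order. That fit draws its group difference from the lane tag 2 libraries too, so the likeness was set by the design and is no separate check. Without the pair of libraries *Mdm2* was at -0.090 and *Mcl1* at -0.015. Over the fits that left out 1 library the values ran between -0.11 and 0.070 for *Mdm2*, -0.036 and 0.11 for *Bbc3*, -0.037 and 0.13 for *Mdm4*, -0.028 and 0.16 for *Bcl2*, and -0.011 and 0.045 for *Mcl1*.

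Same-numbered libraries deviated together with correlations of 0.126, 0.018, 0.135 and -0.138, so the numbers were not taken as pairs. With the replicate block *Mdm2* was at -0.0054, *Pmaip1* at 1.22 (edgeR adjusted p = 0.0910), *Bcl2l11* at 0.59 (0.0676) and *Ddit4* at 0.50 (0.0696), and not every library correlated best with its own number. Depth limits *Pmaip1*, *Eda2r* and *Sesn2* most.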
